A study of Notophthalmus viridescens with 18 samples.

Results

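Among 27395 transcript entries measured in newt cells, 77 had a higher read count in myotubes kept in conditioned medium than in myotubes kept in fresh low-serum medium or in high serum, at a similar level whether proliferating or senescent cells had conditioned the medium. These 77 members were chosen by the myotube values themselves. Each member had a mean normalised read count of at least 100 in myotubes given medium from proliferating cells. Both conditioned-medium groups had at least 3 times the mean of each other myotube group, and the mean with senescent cell medium was between 0.67 and 1.5 times that with proliferating cell medium. The normalised read count is the estimated number of reads divided by the median-ratio size factor of the library.

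All 6 groups came from A1 cells, a wild-type myogenic line from the limb of the newt Notophthalmus viridescens, with 3 libraries in each group. Conditioned-medium myotubes, after 5 days of differentiation in 0.25% FCS, spent 3 days in medium with 0.25% FCS that senescent cells (MT_0.25%_SEN_CM, here SEN_CM) or proliferating cells (MT_0.25%_PRO_CM, here PRO_CM) had conditioned for 48 h. MT_10% and MT_0.25% myotubes were made in the same way and spent those 3 days in fresh medium with 10% or 0.25% FCS. Senescent mononucleate cells (SEN) received 20 µM etoposide for 24 h together with 1 µM nutlin, by the labels, or followed by it, by the study's methods. They stayed in nutlin until day 12 and were kept in 10% FCS. Proliferating mononucleate cells (PRO) were kept in 10% FCS with DMSO until day 12. Myotubes were purified on a filter of 100 µm and then a finer one, of 30 µm by the labels and slightly wider by the study's methods, while SEN and PRO cells were not filtered, and RNA came from a micro kit for myotubes and a mini kit for mononucleate cells. The sources do not say whether the 3 libraries of a group came from separate cultures, so p-values measure only the spread between these libraries, which may be technical.

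Newt myotubes are multinucleate muscle cells that, unlike those of mammals, can leave the differentiated state and copy their DNA again when serum is added. Etoposide damages DNA and nutlin stabilises p53, and cells treated in this way leave the cell cycle for good and secrete growth factors, cytokines and proteases. Conditioned medium carries what the cells released and also lacks what they consumed, so both media differ from fresh medium in more than signals from senescent cells.

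Estimated reads ran from 20609828 to 62991718 per library. The 21 differentiation transcripts that the study displayed include myogenin and the myosin heavy chains. They also include Myf5, which by the study falls on differentiation, so their sum is not a measure of muscle identity alone. Their normalised counts summed to 34257 to 37229 in SEN_CM, 34778 to 41076 in PRO_CM, 61510 to 68594 in MT_10% and 43534 to 59534 in MT_0.25%. The sums were 6674 to 7185 in SEN and 16251 to 28910 in PRO. Both conditioned-medium groups thus lay below both other myotube groups, and the reason was not tested. MT_10% lay above MT_0.25%, whereas the study reports that serum reduced its readouts of differentiated muscle. A sum of counts weighs the entries with the most reads, and this difference was not tested either. Among the myotube groups, only PRO_CM had 1 of the 21 at 0 in all its libraries. The 17 proliferation transcripts, among them cyclin B1 and Cdc20, summed to 8172 to 9538 in SEN_CM, 3681 to 4183 in PRO_CM, 25226 to 27175 in MT_10%, 3913 to 7568 in MT_0.25%, 2958 to 3315 in SEN and 37631 to 44240 in PRO. All 17 had reads in every library. The study picked both lists from these samples. PRO_CM and MT_0.25% overlapped in the proliferation sum but not in the differentiation sum. Whether either sum bears on the members' levels was not tested.

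Most members were a few times higher with conditioned medium, and a small number were more than 10 times higher. The median ratio of SEN_CM to MT_10% was 5.56, and that to MT_0.25% was 4.40. The median ratio of PRO_CM to MT_10% was 5.14, and that to MT_0.25% was 3.89. Over all 23107 tested transcripts the same medians were 1.03, 0.93, 1.04 and 0.99. The smallest of the 4 ratios was under 4 in 54 members, at least 5 in 16 and at least 10 in 7. These ratios chose the members and are given without a test. All 6 conditioned-medium libraries lay above all 6 other myotube libraries in 76 of the 77 members, as they did in 8.06% of all tested transcripts. The exception was comp2017859_c0_seq1, with 78.3 in MT_10% replicate 1 and 53.8 in PRO_CM replicate 2.

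**Figure D1:**
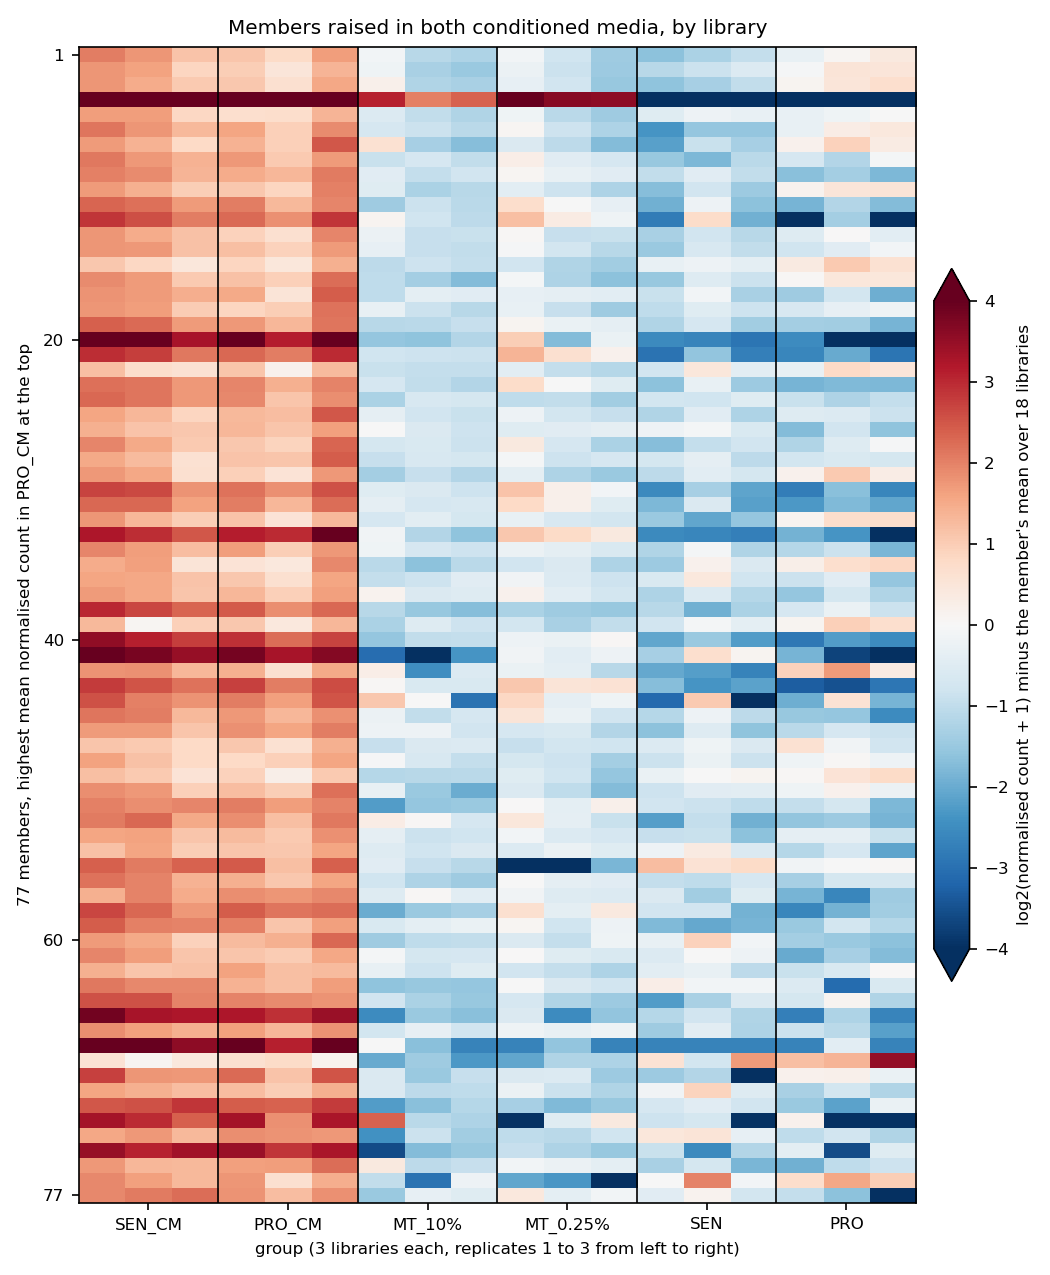
The plot shows each of the 77 members as a row and each of the 18 libraries as a column, coloured by log2(normalised count + 1) minus the member's mean over the 18 libraries, with rows ordered by the mean in PRO_CM. The 6 conditioned-medium columns on the left are red in nearly every row, while the 12 other columns vary in shade from row to row. The row that is dark blue in all SEN and PRO columns is comp9624_c0_seq1, at 0 reads in those 6 libraries.

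SEN_CM and PRO_CM were similar by the rule, and within its limits the mean was higher in SEN_CM for 54 members and lower for 23. The median ratio of SEN_CM to PRO_CM was 1.11 over the members and 1.02 over all tested transcripts. The direction turned with the unit, a comparison added after the data were seen. In TPM the mean was higher in SEN_CM for 13 members and lower for 64, with a median ratio of 0.857 over the members and 0.775 over all tested transcripts. The median of all tested transcripts thus moved below 1 as well, and that of the members lay above it in both units. The rule limited this ratio by count in the members, so these values are a description. The members nearest the limits of this ratio were comp11040_c0_seq3 at 0.684 and comp20423_c0_seq21 at 1.48, and just outside it were comp3226662_c0_seq1 at 0.639 and comp20668_c0_seq2 at 1.59. The smallest of the 4 ratios was 3.008 in comp743333_c0_seq1 and 3.012 in comp30916_c0_seq1, the members nearest the 3-fold limit. It was 2.981 in comp3417994_c0_seq1 and 2.973 in comp6061_c0_seq1, just outside it. The lowest mean in PRO_CM inside the level limit was 101.4, in comp88828_c0_seq3, and the nearest outside it was 96.97, in comp422792_c0_seq1.

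The members were more often lower than higher with serum alone. The mean in MT_10% was lower than in MT_0.25% for 59 members and higher for 18, with a median ratio of 0.887, while 49.4% of all tested transcripts were lower in MT_10%. Both groups served as baselines in the rule, which limits how high either could be, so these values are a description.

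Most members have no name here. The name tables of the study that were read hold 3592 entries, and 1346 of those have a named closest protein. Of the 77 members, 10 are in these tables and 4 of them have a named hit, 2 match uncharacterized proteins and 4 have no hit, which leaves 67 outside the tables. Because the tables list transcripts that changed between groups and were read only in part, a name is no measure of a member's importance, and a named member is more likely to differ between groups. None of the 77 members is among the 123 entries of the 11 lists the study displayed, which cover differentiation, proliferation, senescence, FGF, BMP, Wnt and other signalling genes. None is in the 8 families formed by keyword from the names, which were extracellular matrix, proteases and inhibitors, cytokines and innate immunity, heat shock proteins, membrane transport, growth factors, muscle structure and mobile elements. The families hold 13 to 66 entries each, all of them named, so they cannot contain the 67 members without a place in the name tables. The members are also only 77 of 27395 entries, so finding none among 123 displayed entries does not set them apart.

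Of the 4 members with a named protein, comp273488_c1_seq2 is closest to FRMD4A, a FERM domain scaffold that in mammals takes part in epithelial polarity. Its normalised counts were 888, 694 and 548 in SEN_CM, 594, 394 and 532 in PRO_CM, 49.8, 37.5 and 32.7 in MT_10% and 44.0, 39.8 and 37.6 in MT_0.25%. The 6 conditioned-medium libraries thus held at least 394 and the 6 other myotube libraries at most 49.8, so the groups were far apart. The ratio of SEN_CM to MT_0.25% was 17.6 and that of PRO_CM to MT_0.25% was 12.5, and this was the only one of the 4 named members above 10. In mononucleate cells it had 50.2, 28.2 and 44.2 in SEN and 67.2, 89.3 and 59.6 in PRO, with no overlap. It was lower in SEN by a log2 fold change of -0.79 ± 0.27 (SE, n = 3 each, edgeR quasi-likelihood adjusted p = 0.0183), a call that was lost without PRO replicate 2 (-0.62, edgeR adjusted p = 0.0895) or SEN replicate 2 (-0.60, edgeR adjusted p = 0.0856). It was also lost when only SEN and PRO libraries were fitted (-0.80, edgeR adjusted p = 0.0507).

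The entry closest to Ncoa1, comp130542_c0_seq7, encodes a coactivator that nuclear hormone receptors recruit to their target genes. It had 1696, 1519 and 1147 in SEN_CM, 1315, 746 and 1240 in PRO_CM, 142, 220 and 212 in MT_10% and 168, 175 and 132 in MT_0.25%. The ratios to MT_0.25% were 9.18 in SEN_CM and 6.95 in PRO_CM, and no MT_10% or MT_0.25% library exceeded 220. It had 206, 196 and 248 in SEN and 186, 146 and 179 in PRO, a log2 fold change of 0.35 ± 0.23 that was not called (edgeR adjusted p = 0.225). The mononucleate cells therefore held about as many normalised reads as the myotubes in fresh medium, far below both conditioned-medium groups.

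Endoglin, comp1164451_c0_seq3, is a co-receptor for ligands of the TGF-β family, including BMPs. It had 1125, 920 and 877 in SEN_CM, 1039, 897 and 1287 in PRO_CM, 414, 280 and 233 in MT_10% and 299, 305 and 326 in MT_0.25%. Its ratios to MT_0.25%, 3.14 in SEN_CM and 3.46 in PRO_CM, were near the limit of the rule. Of the 4 members with a named protein it was the only one called higher in SEN by count, with 358, 398 and 275 in SEN and 124, 245 and 134 in PRO, a log2 fold change of 1.04 ± 0.25 (edgeR adjusted p = 0.00185). The deposited length of the entry had a median of 168 bases and ran from 117 to 217 over the libraries.

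The entry closest to FGD6, comp1153399_c0_seq1, is annotated as a fragment of a protein that in mammals acts on the actin cytoskeleton. It had 4461, 4396 and 2970 in SEN_CM, 3018, 2482 and 4280 in PRO_CM, 1044, 691 and 660 in MT_10% and 1279, 790 and 607 in MT_0.25%. Its ratios to MT_0.25% were 4.42 in SEN_CM and 3.66 in PRO_CM. With 467, 844 and 667 in SEN and 758, 962 and 1209 in PRO the mononucleate groups overlapped, and the log2 fold change of -0.57 ± 0.29 was not called (edgeR adjusted p = 0.108). The deposited length of this entry had a median of 152 bases and ran from 144 to 182.

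**Figure D2:**
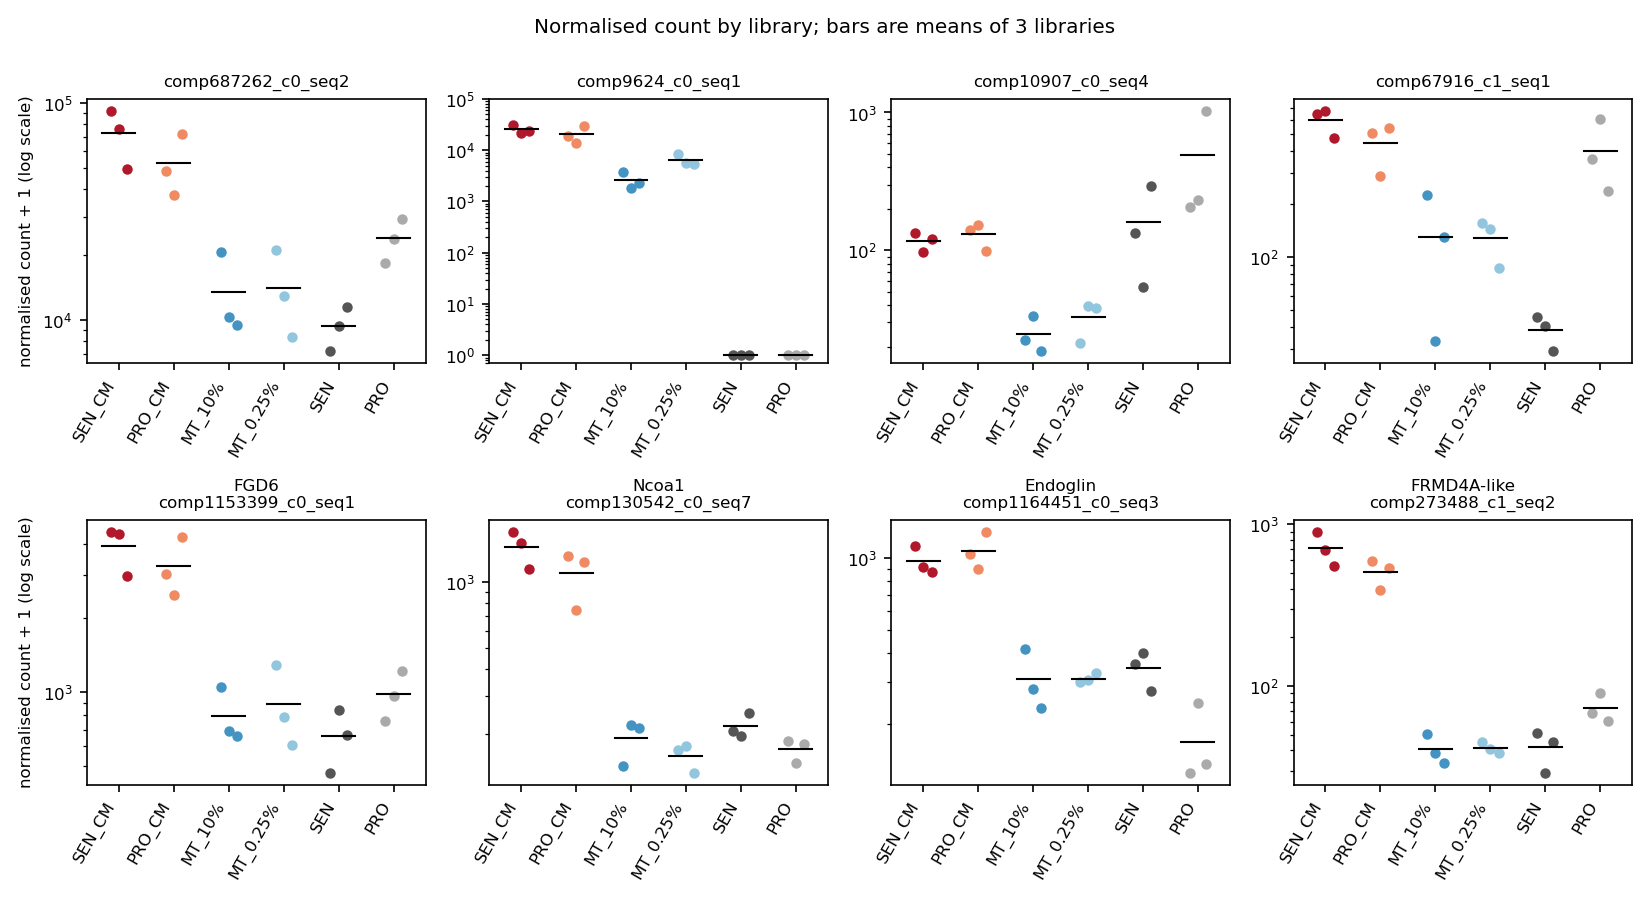
Each panel plots the normalised count plus 1 of 1 member on a log axis in the 18 libraries, with points for libraries and bars for means of 3 libraries. The upper panels show comp687262_c0_seq2, comp9624_c0_seq1, comp10907_c0_seq4 and comp67916_c1_seq1, and the lower panels show the 4 named members. SEN_CM and PRO_CM lie above MT_10% and MT_0.25% in all 8 panels, as chosen. SEN and PRO range from 0 reads in comp9624_c0_seq1 to a PRO library of 29347 in comp687262_c0_seq2. In comp10907_c0_seq4 a PRO library of 1025 lies above every conditioned-medium library.

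Read counts were uneven among the members. The mean in PRO_CM was at least 10000 in 6 members, which held 68.5% of the members' normalised counts in PRO_CM, at least 1000 in 26 and under 200 in 24. These are read counts and not levels per length. The members held 0.359% to 0.680% of the reads in conditioned-medium libraries and 0.123% to 0.240% in the 12 other libraries. The first of them, comp687262_c0_seq2, had 91992, 75743 and 49908 in SEN_CM, 48491, 37827 and 72085 in PRO_CM, 20643, 10401 and 9479 in MT_10% and 20961, 12872 and 8331 in MT_0.25%. The lowest conditioned-medium library held less than 2 times the count of the highest other myotube library. In mononucleate cells it had 7205, 9380 and 11505 in SEN and 18280, 23783 and 29347 in PRO, and the log2 fold change of SEN over PRO was -1.35 ± 0.35 (edgeR adjusted p = 0.00320).

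Of the 10 members with the most reads in PRO_CM, 6 were entries of under 300 bases. The median deposited lengths of comp687262_c0_seq2, comp108980_c0_seq3, comp2209488_c0_seq1 and comp1467375_c0_seq1 were 132, 41.2, 63.2 and 59.4 bases. These are shorter than the fragment length implied for any library, given below. Among all 77 members the median length was 662 bases, against 706 for all tested transcripts and 785 for the 12991 with at least 100 in PRO_CM. Entries of under 300 bases made up 31.2% of the members, 22.3% of all tested transcripts and 21.1% of those with at least 100. The range was 41.2 to 15027 bases. Lengths are those deposited with each library, as a median over libraries, since only 14 members had the same length in every library. A length that is not whole or varies between libraries is not that of a fixed sequence. What such lengths average over is not stated in the sources read. The 77 members come from 77 different assembled components, so no member is an isoform of another by name, and a member may be a piece of a longer transcript.

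The entry comp9624_c0_seq1, of 671 bases and without a name, had the lowest count in mononucleate cells relative to conditioned-medium myotubes. It had 30789, 21993 and 23225 in SEN_CM, 19212, 13822 and 30075 in PRO_CM, 3742, 1803 and 2289 in MT_10% and 8372, 5515 and 5287 in MT_0.25%. Not a single read was assigned to it in the 3 SEN or 3 PRO libraries. With 3 reads over the group assumed as the floor, the ratio was 30166 for SEN_CM over SEN and 13500 for PRO_CM over PRO. The exact 95% intervals from summed reads had lower limits of 24532 and 10978 in the same order, and no upper limit. These intervals cover counting error only and leave out the spread between libraries. The rule chose the member for high conditioned-medium counts, and it is named here for its low ratio, so they are no test. Within myotubes, every MT_10% library lay below every MT_0.25% library.

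The member comp7333931_c0_seq1, of 475 bases with no hit, was also low in mononucleate cells. It had 2259, 2364 and 885 in SEN_CM, 1455, 808 and 2037 in PRO_CM, 30.2, 28.6 and 39 in MT_10% and 177, 26.4 and 74.0 in MT_0.25%. SEN held 14.7, 13.6 and 10.9 and PRO 14.8, 3.80 and 4.58. The conditioned-medium means were 19.9 and 15.5 times that of MT_0.25% in SEN_CM and PRO_CM, and MT_0.25% replicate 1 stood above the rest of its group.

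A group of 4 members was nearly silent outside conditioned medium, with means under 10 in both MT_10% and MT_0.25%. They were comp107991_c0_seq2, comp38728_c1_seq1, comp442513_c0_seq1 and comp1152536_c0_seq1, of which the last matches an uncharacterized protein. In comp107991_c0_seq2 the counts were 227, 155 and 147 in SEN_CM, 146, 118 and 172 in PRO_CM, 1.78, 4.69 and 3.98 in MT_10% and 9.66, 1.76 and 4.29 in MT_0.25%. In comp38728_c1_seq1 they were 119, 124 and 155 in SEN_CM, 113, 109 and 147 in PRO_CM, 3.56, 5.73 and 8.76 in MT_10% and 7.51, 5.27 and 6.44 in MT_0.25%. These entries, of 3949 and 5386 bases, are among the longer ones, and their conditioned-medium libraries were close to each other.

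In comp442513_c0_seq1 the counts were 134, 101 and 122 in SEN_CM, 130, 86.6 and 114 in PRO_CM, 0, 2.60 and 3.19 in MT_10% and 5.37, 4.10 and 3.22 in MT_0.25%. In comp1152536_c0_seq1 they were 165, 149 and 75.6 in SEN_CM, 103, 54.9 and 240 in PRO_CM, 5.34, 1.04 and 0 in MT_10% and 0, 1.17 and 0 in MT_0.25%. The last entry had 2 reads in all of MT_0.25%. Its mean deposited length was 205 bases in SEN_CM and PRO_CM, 462 in MT_10% and 664 in MT_0.25%, so the length is not that of a fixed sequence. Its ratio to MT_0.25% from summed reads was 289 in SEN_CM (exact 95% interval 79.4 to 2395) and 299 in PRO_CM (82.2 to 2478). The intervals cover counting error only and leave out the spread between libraries. The rule chose the member by ratios of these groups, so the intervals are no test of the rise. None of these 4 members was called between SEN and PRO (edgeR adjusted p = 0.112, 0.389, 0.507 and 0.259 in the order named), where their counts were all under 20.

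The kinds of cell that conditioned the media were measured in SEN and PRO, in 10% FCS and not in the medium used for conditioning. In 47 members the higher of the SEN and PRO means was below a fraction of 1/3 of the lower conditioned-medium mean, in 29 members it was between 1/3 and 1 of it, and in 1 member it was above it. The median of this ratio was 0.240. The rule chose members for high conditioned-medium levels, which favours low ratios, and no share over all transcripts was computed. These values are therefore a description. In bulk RNA, fewer cells of a type and less RNA per cell cannot be told apart, and a share of mononucleate cells left in the filtered myotubes was not measured here. The highest mean outside the conditioned-medium groups was in PRO for 29 members, in MT_0.25% for 29, in SEN for 13 and in MT_10% for 6. SEN and PRO means were both below the higher of MT_10% and MT_0.25% in 35 members and both above it in 14.

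The member above the limit was comp10907_c0_seq4, with 132, 96.1 and 119 in SEN_CM, 140, 151 and 98.3 in PRO_CM, 21.3, 32.3 and 17.5 in MT_10% and 20.4, 38.1 and 37 in MT_0.25%. It had 133, 53.2 and 294 in SEN and 206, 232 and 1025 in PRO, where PRO replicate 3 stood far above the others. The log2 fold change between SEN and PRO was -1.60 ± 0.51 (edgeR adjusted p = 0.0136). Without PRO replicate 3 it was -0.44 (edgeR adjusted p = 0.438), and without SEN replicate 1 or 2 it was -1.47 or -1.19, and not called (edgeR adjusted p = 0.0502 and 0.0636). The next ratios were 0.930 in comp3760_c0_seq1 and 0.901 in comp67916_c1_seq1.

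Senescent and proliferating cells were compared to learn whether the members that rose with either medium also differ between the cells that made it. The rule set no threshold on these 6 libraries, which entered it only through the size factors, taken over entries with reads in all 18 libraries. Of the 77 members, 14 were called higher and 17 lower in SEN at an adjusted p under 0.05 by edgeR, and 46 were not called. The 18.2% called higher stand beside 24.0% of all tested transcripts, and the 22.1% called lower beside 25.6%. In either direction 40.3% of the members were called, against 49.6% of all tested transcripts. The members' shares lay below those of all tested transcripts in both directions, which is a description and not a test of the list. The median log2 fold change was -0.01 over the members and 0.14 over all tested transcripts. All 3 SEN libraries lay above all 3 PRO libraries in 18 members (27.6% of all tested transcripts did so) and below them in 20 (27.0%). Without SEN replicate 2 only 9 members were called higher, all of them among the 14, and 18 lower.

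**Figure D3:**
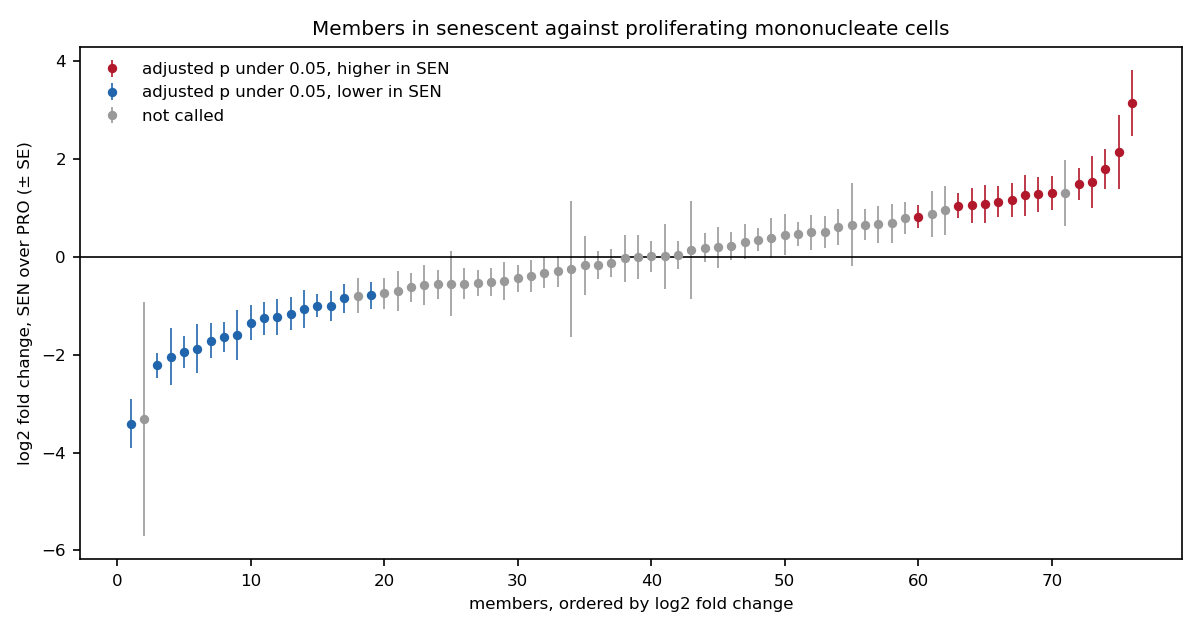
The plot gives the log2 fold change of SEN over PRO with its standard error for 76 members ordered by that value, in red where called higher in SEN, in blue where called lower and in grey where not called. The member comp9624_c0_seq1, with no reads in either group, is left out. The called members lie at both ends, from -3.41 to 3.14, and the grey point at -3.32 with the widest bar is comp1152536_c0_seq1.

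The members lower in SEN included several with many reads. Among the 26 members with at least 1000 in PRO_CM, 3 were called higher and 9 lower. Among the 51 others 11 were called higher and 8 lower. Shares over all tested transcripts at these levels were not computed, so the split may not be particular to the members. The largest fall was in comp67916_c1_seq1, with 44.8, 39.6 and 28.3 in SEN and 358, 610 and 235 in PRO, a log2 fold change of -3.41 ± 0.50 (edgeR adjusted p = 1.00e-05). In myotubes it had 647, 674 and 471 in SEN_CM, 508, 289 and 537 in PRO_CM, 224, 32.3 and 129 in MT_10% and 155, 144 and 85.8 in MT_0.25%. The PRO libraries overlapped with those of the conditioned-medium myotubes, while every SEN library lay below every MT_0.25% library.

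A similar order was found in comp30916_c0_seq1, of 1507 bases. It had 124, 82.4 and 120 in SEN and 378, 576 and 573 in PRO (log2 fold change -2.22 ± 0.25, edgeR adjusted p = 6.05e-07), beside 1193, 881 and 691 in SEN_CM, 781, 512 and 865 in PRO_CM, 219, 263 and 214 in MT_10% and 283, 224 and 209 in MT_0.25%. The members comp13070_c0_seq8, comp1725046_c0_seq1 and comp2209488_c0_seq1 made up the rest of the 5 largest falls among members without overlap and with a mean of at least 50 in the higher group. The first had 1179, 2059 and 2077 in SEN and 4878, 7368 and 8107 in PRO, a log2 fold change of -1.94 ± 0.33 (edgeR adjusted p = 5.44e-05). The next had 560, 1379 and 1021 in SEN and 2877, 4798 and 3216 in PRO, a log2 fold change of -1.88 ± 0.50 (edgeR adjusted p = 0.00378). In comp2209488_c0_seq1, with 4022, 4927 and 6155 in SEN and 13172, 16991 and 19418 in PRO, it was -1.71 ± 0.36 (edgeR adjusted p = 0.000559).

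Among the other members with many reads, comp42610_c0_seq1 and comp108980_c0_seq3 also fell without overlap. The entry comp42610_c0_seq1 had 515, 973 and 609 in SEN and 1835, 2311 and 2411 in PRO, a log2 fold change of -1.65 ± 0.31 (edgeR adjusted p = 0.000167). In comp108980_c0_seq3 the counts were 6365, 7621 and 9384 in SEN and 13254, 19579 and 19449 in PRO, and the log2 fold change was -1.16 ± 0.35 (edgeR adjusted p = 0.00840). The fall of comp6927_c0_seq1 was smaller and its libraries overlapped, with 836, 692 and 1145 in SEN and 1493, 1066 and 2267 in PRO (log2 fold change -0.85 ± 0.29, edgeR adjusted p = 0.0182). That call was lost without PRO replicate 3, SEN replicate 1 or SEN replicate 2 (edgeR adjusted p = 0.156, 0.0559 and 0.0853). In comp1467375_c0_seq1, with 6851, 8429 and 7785 in SEN and 7875, 8521 and 9470 in PRO, the log2 fold change of -0.17 ± 0.29 was not called (edgeR adjusted p = 0.660). Only comp27756_c0_seq1 went the other way among the 10 members with the most reads, with 758, 1094 and 757 in SEN and 470, 578 and 432 in PRO, a log2 fold change of 0.82 ± 0.24 (edgeR adjusted p = 0.00702).

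The falls depended on the unit. On log2(TPM + 1) each entry is divided by its effective length and scaled to the library total, without the median-ratio size factors. Those factors were 0.959 to 1.38 in SEN and 0.526 to 0.744 in PRO, at 31537351 to 45257419 and 37725006 to 44402253 estimated reads. The median of all tested transcripts moved by 0.49 toward SEN, and the parts of length and scaling in this were not tested. By limma 43 members were then called higher in SEN and 3 lower, and of the 17 called lower by count 3 were called lower. Of all 23107 tested transcripts 15118 were called in that unit, 14317 of them higher, so a call higher in SEN was common there. Under that unit the members' median was 0.07 below that of all tested transcripts, and by count it was 0.15 below. The log2 fold change of comp2209488_c0_seq1 was then -0.44 and that of comp1725046_c0_seq1 was -0.63, neither called (limma adjusted p = 0.0943 and 0.149). The member comp3760_c0_seq1, with 1034, 1094 and 968 in SEN and 1639, 2647 and 1922 in PRO, had a log2 fold change of -1.003 ± 0.24 by count (edgeR adjusted p = 0.00136), and of 0.32 in TPM (limma adjusted p = 0.0952). The falls of comp687262_c0_seq2, comp108980_c0_seq3, comp42610_c0_seq1, comp6927_c0_seq1 and comp10907_c0_seq4 were not called in TPM either. Of the named proteins, the FRMD4A-like entry had 0.0581 in TPM and was not called (limma adjusted p = 0.499), while the FGD6 and Ncoa1 entries were called higher in SEN at 0.56 and 1.20 (limma adjusted p = 0.0164 and 5.3e-05). In comp67916_c1_seq1, comp30916_c0_seq1 and comp13070_c0_seq8 the call and its direction were kept, at -3.57, -0.73 and -0.58 (limma adjusted p = 0.000307, 0.00246 and 0.0167).

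The members higher in SEN mostly had fewer reads. Among those without overlap and with a mean of at least 50 in SEN, the largest rise was in comp269400_c0_seq2, with 40.2, 94.9 and 45.6 in SEN and 18.8, 17.1 and 15.3 in PRO, a log2 fold change of 1.79 ± 0.41 (edgeR adjusted p = 0.00102). It was 1.49 ± 0.32 in comp743333_c0_seq1, with 46.4, 67.8 and 60.1 in SEN and 16.1, 26.6 and 19.9 in PRO (edgeR adjusted p = 0.000710). It was 1.28 ± 0.36 in comp4756883_c0_seq1, with 48.7, 100 and 37.7 in SEN and 21.5, 32.3 and 22.9 in PRO (edgeR adjusted p = 0.00571). Smaller rises were those of comp45255_c0_seq1 at 1.12 ± 0.32 and comp1524428_c0_seq1 at 1.07 ± 0.39 (edgeR adjusted p = 0.00597 and 0.0262). None of these 5 has a name, and in all 5 of them SEN replicate 2 was the highest of the 6 libraries.

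SEN replicate 2 decided part of these rises. Without it the log2 fold change was 0.77 in comp4756883_c0_seq1, 0.73 in comp1524428_c0_seq1 and 0.62 in comp27756_c0_seq1, and none of these was called (edgeR adjusted p = 0.0619, 0.151 and 0.0513). Of the 14 members called higher, 7 were called in the same direction in each of the 6 fits that left out a library, and of the 17 called lower, 11 were. Of the members called higher, 13 had every SEN library above every PRO library. Of those called lower, 15 had every SEN library below every PRO library. The same shares over all called transcripts were not computed, so these counts do not set the members apart from other called transcripts.

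Outside the rule for names, and chosen after its values were seen, comp1519178_c0_seq1 had the largest fold change of SEN over PRO among the members. It held 13.9, 59.4 and 39.8 in SEN and 9.41, 1.90 and 0 in PRO, a log2 fold change of 3.14 ± 0.67 (edgeR adjusted p = 0.000621). In myotubes it had 632, 526 and 420 in SEN_CM, 536, 373 and 478 in PRO_CM, 3.56, 0.521 and 6.37 in MT_10% and 33.3, 27.0 and 31.7 in MT_0.25%. Its mean was 151 times that of MT_10% in SEN_CM and 133 times in PRO_CM, but 17.2 and 15.1 times that of MT_0.25%, so that MT_10% was the lowest of the myotube groups.

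Within groups the members often shared the library in which they were highest or lowest. In SEN_CM, replicate 1 was the highest library in 66 of 77 members and replicate 3 the lowest in 66, against 48.2% and 47.9% of the 12991 transcripts with at least 100 in PRO_CM. In PRO_CM, replicate 3 was the highest in 59 members and replicate 2 the lowest in 69, against 42.7% and 52.9%. In MT_0.25%, replicate 1 was the highest in 61 members, against 51.1%. In SEN, replicate 2 was the highest in 51 of the 75 members with reads there, against 34.5%. In MT_10%, replicate 1 was the highest in 46 members, against 36.3%, and in PRO, replicate 2 was the highest in 41 of the 76 with reads there, or 53.9%, against 48.3%. The rule used the means of the 4 myotube groups, so their values are a description. The median coefficient of variation within groups was 23.8% to 29.4% over the members and 12.5% to 20.5% over the transcripts with at least 100. The members are therefore not independent of each other, and their counts are no replicates of a condition.

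The libraries also differed in the length of their fragments, as implied by the median difference between deposited length and effective length in 2103 long entries. This length was 252, 250 and 267 bases in SEN_CM and 254, 247 and 226 in PRO_CM, against 178, 288 and 295 in MT_10%, 275, 288 and 284 in MT_0.25%, 290, 268 and 282 in SEN and 299, 293 and 297 in PRO. The conditioned-medium libraries were thus shorter than all others but MT_10% replicate 1. The rule chose members with a low mean in MT_10%, so the low level of that library beside the conditioned-medium groups says nothing on fragment length. In 5 of the 6 groups, SEN_CM being the exception, the library with the shortest fragments was the most frequent highest library of the members, and in PRO_CM, MT_0.25% and PRO it was also the most frequent highest over the 12991 transcripts. The part of fragment length in the members' values was not tested. The deposited tables of the 6 conditioned-medium libraries carry later Galaxy run numbers than the other 12 in their names. Galaxy is the platform on which the authors processed the reads, and no label gives these numbers as sequencing runs. No source read here says whether the 6 libraries were prepared or sequenced apart. A difference in such handling and an effect of conditioned medium cannot be told apart.

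**Figure D4:**
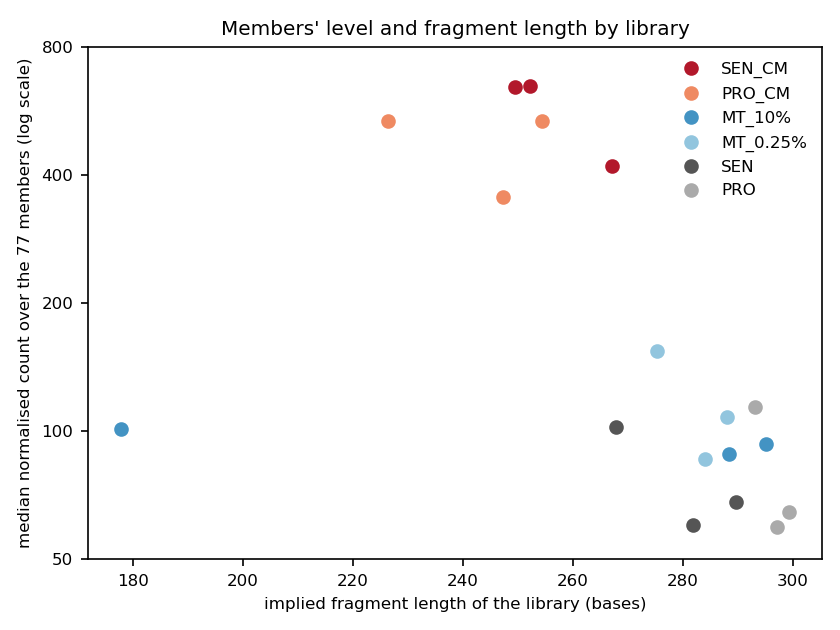
Each point is a library, with the implied fragment length in bases on the x axis and the median normalised count over the 77 members on a log y axis. SEN_CM (420 to 647) and PRO_CM (356 to 537) lie above MT_10% (88.5 to 101), MT_0.25% (85.8 to 155), SEN (60.1 to 102) and PRO (59.6 to 114). The rule fixed MT_10% and MT_0.25% to lie below the conditioned-medium groups.

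The size of the rise depended on the unit as well. In TPM the median ratio over the members was 3.42 for SEN_CM over MT_10%, 2.29 for SEN_CM over MT_0.25%, 3.77 for PRO_CM over MT_10% and 2.73 for PRO_CM over MT_0.25%. Over all tested transcripts these medians were 0.665, 0.501, 0.896 and 0.703, so the typical transcript was lower in the conditioned-medium groups in this unit. TPM adds up to the same total in every library. The entry with the most reads took 8.60% to 10.6% of the reads in SEN_CM and 12.0% to 24.9% in PRO_CM. It took 8.49% to 9.16% in MT_0.25% and 2.37% to 3.54% in MT_10%. Why the typical transcript was lower in TPM was not tested. In that unit 44, 21, 59 and 29 of the 77 members were at least 3-fold higher in the same order of comparisons. With TPM in place of counts for the ratios, the rule would have kept 22 entries, 18 of them among the 77.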

How the data were processed

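The authors trimmed the reads with Trim Galore, examined them with FastQC and quantified each library with Sailfish against a de novo newt transcriptome, so no genome build applies. No source read here states the Sailfish version. The deposited estimated counts, made by the authors with Sailfish, are reads assigned to each entry, neither whole nor normalised, and were rounded here. The deposited TPM came from the authors' same Sailfish output and is scaled for effective length and depth within a library. Deposited lengths served for the length and fragment descriptions. All libraries and all value columns were used.

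Counts were divided by median-ratio size factors over the 21144 entries with reads in all 18 libraries, and members were found by the rule given in the report. The members and all lists were chosen with earlier results of these data known. SEN and PRO were compared by edgeR 4.0.16 (R 4.3.3) quasi-likelihood with the same size factors, filterByExpr by group and all 18 libraries, with Benjamini-Hochberg adjustment over 23107 transcripts at 0.05. The standard error of a log2 fold change was taken as its size divided by the root of its F statistic. The script was tested on simulated data. The deviations of same-numbered SEN and PRO libraries from their group means had correlations of 0.156, 0.195 and 0.228. Libraries with different numbers were not compared, so these values do not establish a pairing, and no label states one.

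Named members are the 10 with the most reads in PRO_CM, those with a named protein, the 5 largest non-overlapping rises and falls in SEN with a mean of at least 50 in the higher group, the 3 highest and 3 lowest in SEN or PRO relative to conditioned medium, and those nearest the limits. Names are closest protein hits in other species. Sequences were not used here. Intervals and the floor of 3 reads cover counting error only. Alternatives were TMM, DESeq2 1.42.0, no filter, only SEN and PRO libraries, the replicate number as a block, limma 3.58.1 on log2(TPM + 1) and log2(TPM + 0.1), other fold limits and leaving out each library.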

Additional observations from a re-analysis of the deposited data

How the results depend on the processing

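The number of members was 74 with TMM scaling (all of them among the 77), 22 with TPM for the ratios, 402 with a 2-fold limit (before the limit of 200 entries) and 23 with a 4-fold limit. Leaving out 1 myotube library gave 57 to 115. The lowest came without PRO_CM replicate 3, where 43 of the 57 were among the 77, and the highest without MT_0.25% replicate 1.

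Between SEN and PRO, limma on TPM called 43 members higher and 3 lower with a pseudocount of 1, and 49 higher and 3 lower with a pseudocount of 0.1, where the members' median was 0.84. Of the 23107 tested transcripts, 14317 and 15808 were then called higher in SEN. These made up 94.7% and 95.1% of all called transcripts, against 48.4% in the count fit and 55.5% with TMM. The median of all tested transcripts moved by 0.12 with TMM, 0.49 with log2(TPM + 1) and 1.04 with log2(TPM + 0.1). With pseudocounts of 1 and 0.1 the direction reversed to 0.11 and 0.11 in comp108980_c0_seq3, 1.10 and 1.10 in comp1467375_c0_seq1, 0.49 and 0.53 in comp6927_c0_seq1, 0.56 and 0.59 in comp1153399_c0_seq1, 0.0581 and 0.30 in comp273488_c1_seq2, and 0.32 and 0.33 in comp3760_c0_seq1. The cause was not tested.

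Leaving out 1 SEN or PRO library gave 10151 to 10761 called transcripts, 9 to 17 members called higher, 12 to 19 called lower and medians of -0.27 to 0.14. The replicate block called 11326 transcripts in all and 14 members higher and 17 lower, and changed no member's call. TMM, DESeq2, no filter and only SEN and PRO libraries called 12 to 15 members higher and 16 to 18 lower.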
